A study of Mus musculus with 12 samples.

Results

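Angiotensin II infusion and transverse aortic constriction (TAC) were compared in the mouse left ventricle at 1 week, on 4 of the 12 arrays of a study of cardiac hypertrophy. The arrays were chosen by procedure and time: Ang II, its control, TAC, and its sham. The mice were Balb/c animals of 6 to 8 weeks. Ang II was given at 2 mg/kg/day from an osmotic minipump, and its control received saline by the same route. TAC mice had the transverse aorta tied down to a narrow lumen, and their controls had the same surgery without the tie, so the controls differ in kind: a pump for one procedure and an operation on the aorta for the other. Every group was 1 array of left ventricular RNA, and whether an array held 1 mouse or a pool is not stated. The sham was tied to its TAC array by the sample titles. The other 8 arrays entered the filter on dim genes and the model. Of these, the sham of the infarction series at 1 week (MI sham) also served as the third control of 1 week. The 1 month shams of the infarction and TAC series also entered the differences built from 4 controls.

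Ang II is the effector hormone of the renin-angiotensin system. It acts through the type 1 receptor on vessels, cardiac fibroblasts and cardiomyocytes, raises blood pressure and so loads the ventricle, while TAC loads the ventricle mechanically from the first day. Both enlarge cardiomyocytes, bring back genes of the fetal ventricle such as those of atrial natriuretic peptide and beta myosin heavy chain, and increase the interstitial collagen laid down by fibroblasts. The comparison asks which of these programmes were seen with both forms of load and which with one.

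All 7 cardiomyocyte markers were bright on the 4 arrays, with summed signals of 77100 with Ang II, 79100 in its control, 62300 with TAC and 76000 in its sham. Summed macrophage markers were at 3450 and 3020 on the Ang II pair and at 5460 and 5060 on the TAC pair, so the pairs stood apart and the procedures within them less so. Summed neutrophil markers were 336 in the TAC sham against 62.5 to 153 on the other arrays. The 5' to 3' signal ratio of the control transcript dap was 0.488 and 0.493 on the Ang II pair and 0.279 and 0.297 on the TAC pair, whereas actin 3' to 5' ratios lay between 1.18 and 1.28 on the 4 arrays. In tissue RNA, fewer cells of a type and less RNA per cell cannot be told apart.

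Signals were scaled to a common trimmed mean, and a log2 ratio was taken for each gene between a procedure array and its own control. A gene was counted as higher or lower with a procedure when that ratio was at least 1 in size (2-fold), its brighter signal was above 25.9 (the median over all arrays), and the signal with the procedure was higher or lower than in each of the 3 controls of 1 week. Of 11623 genes tested, 135 (1.16%) were higher and 109 (0.938%) lower with Ang II, and 282 (2.43%) were higher and 125 (1.08%) lower with TAC. Higher calls were 69.3% of the TAC calls, and 88.6% or 61.7% with signals as deposited or after quantile normalization. Between 2 controls of 1 week the same limits were passed by 341 to 489 genes, or 2.93 to 4.21%. The Ang II total of 2.10% was below that range, and the TAC total of 3.5% lay within it, though the limits were not equal. Among genes above a signal of 100 on either array of the pair, where the limit on the 3 controls was not applied, 20 genes passed the fold with Ang II (0.273%) and 152 with TAC (2.02%), against 1.00 to 1.73% between controls. At bright signals more genes therefore passed the fold in the TAC pair than in any pair of controls, and fewer in the Ang II pair. Every pair of controls joined different series, with dap ratios of 0.493 (Ang II control), 0.297 (TAC sham) and 0.211 (MI sham). The procedure pairs did not cross series, so the low Ang II share is not read as a share below the noise between arrays.

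**Figure D1:**
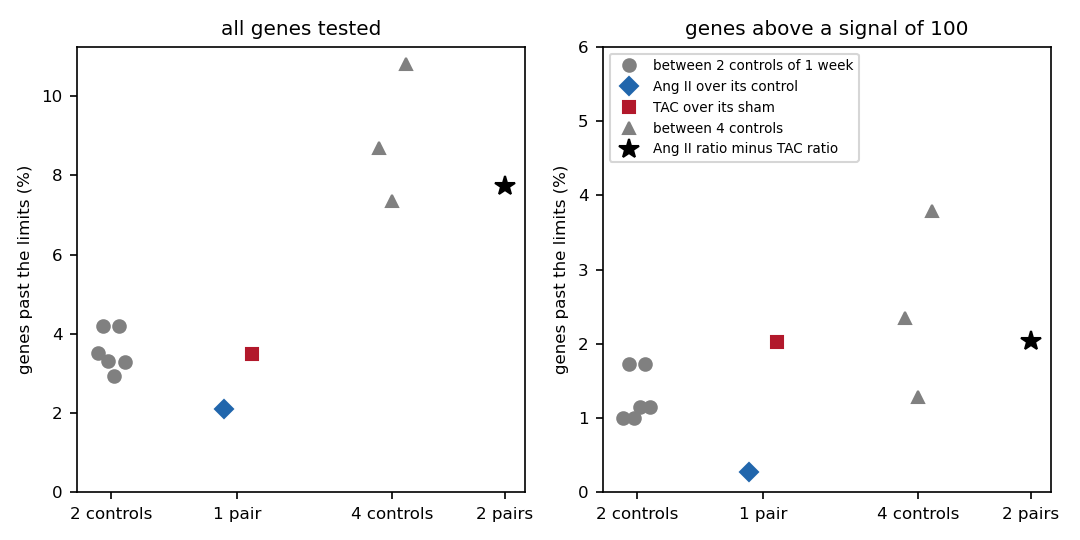
Share of genes past the limits, in percent, between 2 controls of 1 week (grey circles, 6 ordered pairs), for Ang II over its control (blue) and TAC over its sham (red), between 4 controls (grey triangles) and for the Ang II ratio minus the TAC ratio (star), over all genes tested and over genes above a signal of 100, where the range limit was not applied. The Ang II pair lies below all control pairs in both panels, at 2.10% and 0.273%, and the star at 7.72% and 2.04% lies among the control values. The control pairs cross series, which the procedure pairs do not.

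The difference between the procedures was taken as the Ang II ratio minus the TAC ratio. By size and brightness alone 897 genes (7.72%) had a difference of at least 1, and 159 (2.04%) of the 7802 genes above a signal of 100 on 1 of the 4 arrays. Differences built from 4 controls passed for 7.36 to 10.8% of all genes and for 1.28 to 3.79% of bright ones. Each was a difference between 2 controls of 1 week minus the same difference between the 1 month shams of the infarction and TAC series. They thus crossed series and time, unlike the Ang II and TAC ratios, and all shared the 1 month term. With the added limits that the difference exceeds the range of the 3 controls and that the Ang II and TAC arrays differ in the same direction, 276 genes (2.37%) were higher and 433 (3.73%) lower with Ang II than with TAC. Above a signal of 100 these were 46 (0.59%) and 98 (1.26%). Higher calls made up 38.9% of these differences, against 16.6% with signals as deposited, where the median difference of all genes shifted to -0.22, and 45.1% after quantile normalization. In number, the shares of all genes and of bright ones past the fold lay within the ranges of these differences between controls, which are not of the same make. Most genes described here are bright ones or members of gene lists. Genes of a list beyond the 4 with the largest differences were named after their values were seen.

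Limma, with its spread taken from controls of the same time and the lone Ang II and TAC arrays assumed to vary like them, called 0 genes (0.0%) between the Ang II and TAC arrays after Benjamini-Hochberg adjustment at 0.05. At an unadjusted p under 0.05 it counted 1318 genes. The lowest adjusted p was 0.127, for Fmod. This contrast sets array against array and does not subtract each pair's control, and with the source of the arrays unstated its p-values measure only the spread between them. Its count was 1 with signals as deposited or with all 6 controls as 1 group, and 162 when dim genes were kept.

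Genes higher with both procedures numbered 33 (0.284% of all genes), which is 24.4% of the Ang II list and 11.7% of the TAC list, where 2.43% and 1.16% of all genes were on the other list. Lower with both were 13 (0.112%), or 11.9% and 10.4%. Of the 33, 9 had a signal above 100 on 1 of the 4 arrays: Mfap4, Lox, Nmrk2, Cnn1, Cilp, Nupr1, Clcn5, Postn and Thbs1. Of the 13 lower genes none did. Among genes higher with Ang II, 70.4% had a TAC ratio above 0, with a median of 0.42. Among genes higher with TAC, 72.7% had an Ang II ratio above 0, with a median of 0.38. For genes lower with Ang II or with TAC, the shares below 0 in the other pair were 53.2% and 63.2%. A call also required the procedure array to lie beyond the control of the other pair, which favours ratios of the same sign there. The overlap and these shares are therefore partly set by the rule. Over all genes tested, the correlation of the Ang II and TAC ratios was 0.139.

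**Figure D2:**
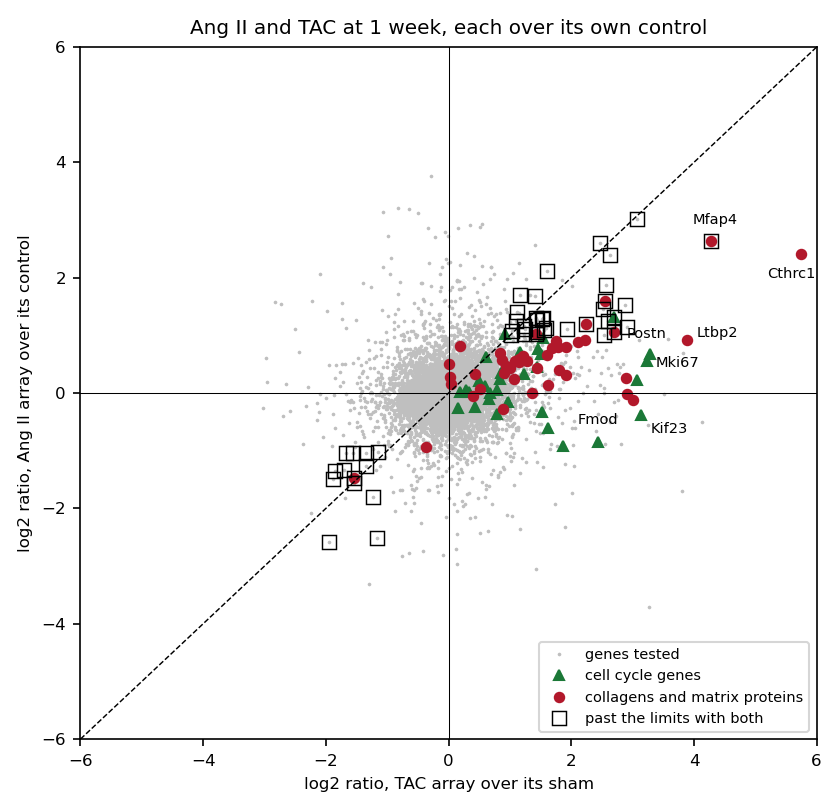
Log2 ratio of each tested gene with TAC (horizontal) and Ang II (vertical), each over its own control, with cell cycle genes as green triangles, collagens and matrix proteins as red circles, genes past the limits with both as open squares, and equal ratios on the dashed line. Most red circles lie right of 0 and below the dashed line, with Mfap4 at 4.29 and 2.63 and Comp at 2.91 and -0.02.

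The brightest gene higher with both was Postn, which encodes periostin, a matricellular protein of activated cardiac fibroblasts. Its signal was 1222 with Ang II and 590 in the control, and 4214 with TAC and 646 in the sham. The MI sham was at 915, so both procedure arrays exceeded all 3 controls, and the TAC array stood far above the Ang II array. The folds were 2.07 with Ang II and 6.52 with TAC, and the log2 difference was -1.65.

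Mfap4, an elastin microfibril protein, had the largest ratio with Ang II among the bright shared genes. It was at 102 with Ang II against 16.5, and at 438 with TAC against 22.5, folds of 6.19 and 19.5. Cilp, a cartilage intermediate layer protein secreted by cardiac fibroblasts, was at 192 against 83.9 with Ang II and at 796 against 168 with TAC. Lox, the lysyl oxidase that cross-links collagen and elastin, was at 52.7 against 18.4 with Ang II and at 357 against 48.7 with TAC. For Lox the Ang II array barely exceeded the TAC sham and the MI sham (46.0), since the Ang II control was the lowest of the 3 controls.

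Nmrk2, a muscle kinase that makes nicotinamide mononucleotide for NAD synthesis, was at 182 with Ang II against 66.5 and at 525 with TAC against 92.3. The folds were 2.74 and 5.69. Cnn1, the smooth muscle calponin, was at 50.6 against 21.3 with Ang II and 108 against 17.7 with TAC. Thbs1, a thrombospondin that can activate latent TGF-beta, was at 69.5 against 34.1 and at 169 against 62.6. In all 3 genes the TAC array was the highest of the 4 and the Ang II array the second.

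Only 2 of these 9 genes had nearly equal ratios or a larger one with Ang II. Nupr1, a stress-induced nuclear protein, was at 69.4 against 31.1 with Ang II and at 102 against 43.5 with TAC, folds of 2.23 and 2.34. Clcn5, an endosomal chloride transporter, was at 87.8 against 26.9 with Ang II and at 108 against 48.5 with TAC, folds of 3.26 and 2.23. For Clcn5 the Ang II control was the lowest control, the MI sham was at 69.2, and the controls spanned 1.36 log2 units. Of the 33 genes, 4 were also lower with Ang II than with TAC by the limits on the difference (Cilp, Cnn1, Mfap4 and Postn) and 0 were higher.

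Less bright genes with large ratios in both pairs were Ccdc136, at 65.2 against 8.00 with Ang II and 57.7 against 6.87 with TAC, and Neil3, a DNA glycosylase of dividing cells, at 43.8 against 8.32 and 41.8 against 6.76. For Ccdc136 the MI sham was at 41.6, close to both procedure arrays, so its controls span a log2 range of 2.60. Synm, which encodes the intermediate filament protein synemin, was at 78.3 against 24.3 and 88.4 against 33.3, with a range of 0.65 between controls. Fstl3, an inhibitor of activin and myostatin, was at 82.3 against 38.0 and 81.3 against 34.2, with a range of 0.22. Synm and Fstl3 thus had near-equal ratios in both pairs and tight controls.

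Among the genes lower with both, Efemp1, the matrix protein fibulin 3, was at 24.2 against 67.4 with Ang II and 31.8 against 92.4 with TAC, with the MI sham at 106. Its folds were 2.79 and 2.90, and both procedure arrays lay well under the 3 controls. Vamp1, a vesicle fusion protein, was at 17.6 against 49.4 and 8.67 against 32.2. Ntn5, Wdr34, Nhej1, Dcc, Cysrt1 and Afmid also passed, all with procedure signals between 6.67 and 31.7, near the median signal or below it.

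**Figure D3:**
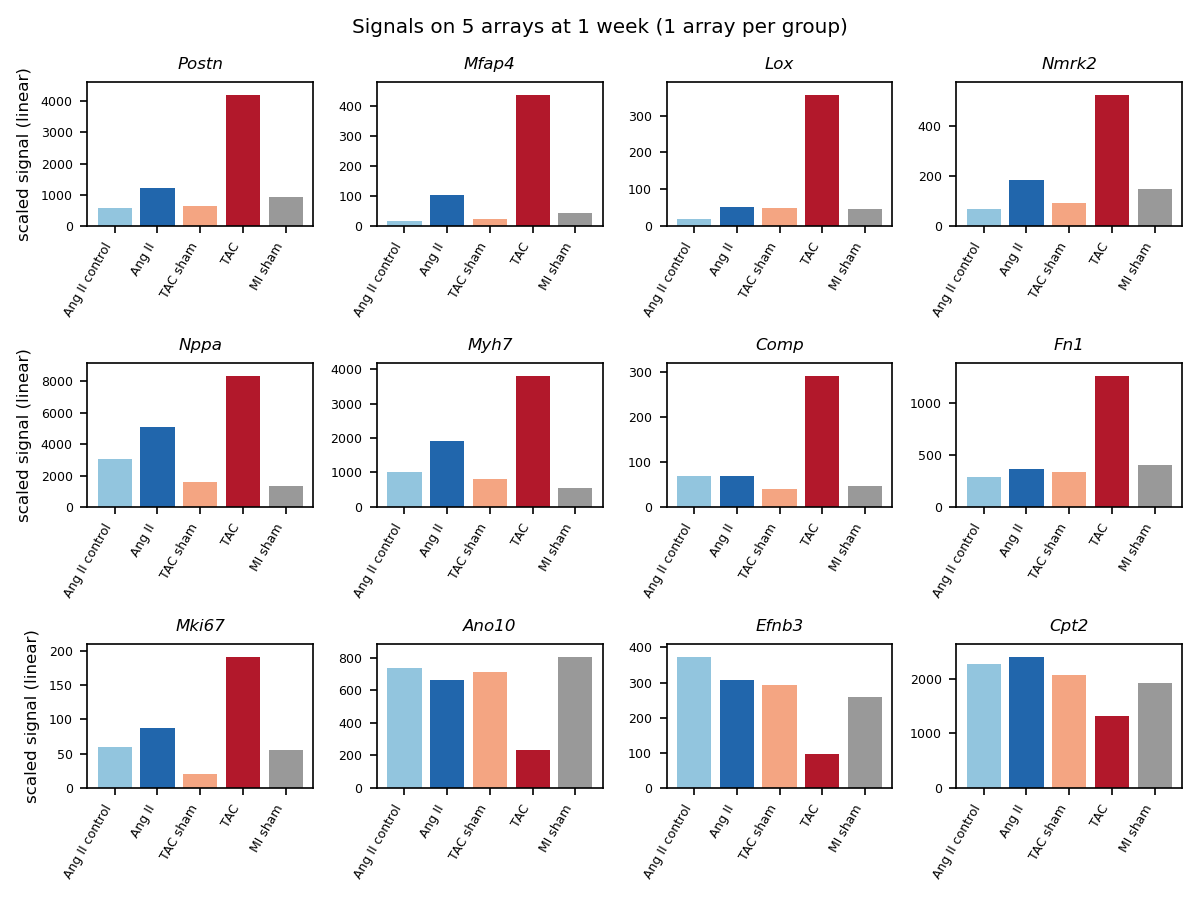
Scaled linear signal of 12 genes on the 5 arrays of 1 week used here, 1 bar per array: Ang II control, Ang II, TAC sham, TAC and the MI sham. Postn stands at 1222 with Ang II and 4214 with TAC, Comp is raised on the TAC array alone, and Ano10, Efnb3 and Cpt2 are lowest on the TAC array.

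Among the lists of 15 or more genes, the collagens and matrix proteins had the median difference of greatest size. With TAC 28 of the 43 measured members were higher (2.43% of all genes) and 1 lower, with a median log2 ratio of 1.36. With Ang II 5 were higher (1.16%) and 1 lower, and the median was 0.55. The same list differed by a median of at most 0.33 between any 2 controls of 1 week. Ratios were above 0 for 41 genes with TAC and for 36 with Ang II, so most members were on the upper side in both pairs, and 17 were lower with Ang II than with TAC (3.73%) while 0 were higher. The median difference was -0.85, against 0.01 over all genes and at most 0.20 in size for differences between 4 controls. Summed fibroblast markers were 18700 and 16200 on the Ang II pair and 21500 and 18200 on the TAC pair, and their part in the matrix differences was not tested.

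Fibrillar collagens were part of this. Col1a1, the main chain of type I collagen, was at 585 with Ang II against 308 and at 2542 with TAC against 547. Both procedure arrays exceeded their own controls, but the Ang II array was below the MI sham at 689. Col5a2 was at 668 against 384 and 2095 against 554, and Col8a1, a short-chain collagen of vessels and fibrotic myocardium, at 701 against 379 and 1814 against 421. For Col8a1 the 3 controls lay within a log2 range of 0.15, and the folds of 1.85 and 4.31 exceed that range in both pairs. Col1a2 was at 1505 against 878 and 4191 against 1308, and Col3a1 at 3251 against 2216 and 6993 against 3299. The Ang II array was below the MI sham for both (1553 and 3649), and for Col3a1 below the TAC sham too.

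A second group of matrix genes was higher on the TAC array only. Fn1, fibronectin, was at 361 with Ang II against 290 and at 1259 with TAC against 333. Aspn, the small leucine-rich proteoglycan asporin, was at 307 against 280 and 938 against 303. Comp, a cartilage oligomeric matrix protein that binds collagen, was at 68.3 against 69.5 and 292 against 38.9. In these 3 genes the Ang II array lay within 1.24-fold of its control while the TAC array was at least 3.09-fold above its sham.

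Ltbp2, a latent TGF-beta binding protein of elastic fibres, was at 64.8 with Ang II against 34.4 and at 297 with TAC against 20.1. Tnc, tenascin C, was at 11.2 against 9.39 and 104 against 14.1. Cthrc1, a secreted protein of activated fibroblasts, was at the floor of 4.54 in both controls, at 24.0 with Ang II and at 242 with TAC, and the MI sham was at 37.5. Its ratios are set by the floor, so only the order of the procedure arrays is given. Fmod, fibromodulin, was at 39.8 against 43.5 and 297 against 37.0, but its 6 probe sets disagreed, with differences from -3.13 to 1.14.

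Other members had smaller differences. Dcn, decorin, was at 5685 against 4691 with Ang II and 5862 against 5765 with TAC. Ccn1, a matricellular protein, was at 584 against 332 and 596 against 524, a log2 difference of 0.63, though its 4 probe sets disagreed. Ccn2, connective tissue growth factor and a known target of both stretch and TGF-beta, was at 1665 against 894 and 2405 against 715, with ratios of 0.90 and 1.75. For Ccn2 both procedure arrays exceeded all controls, the highest of which was the MI sham at 1133.

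**Figure D4:**
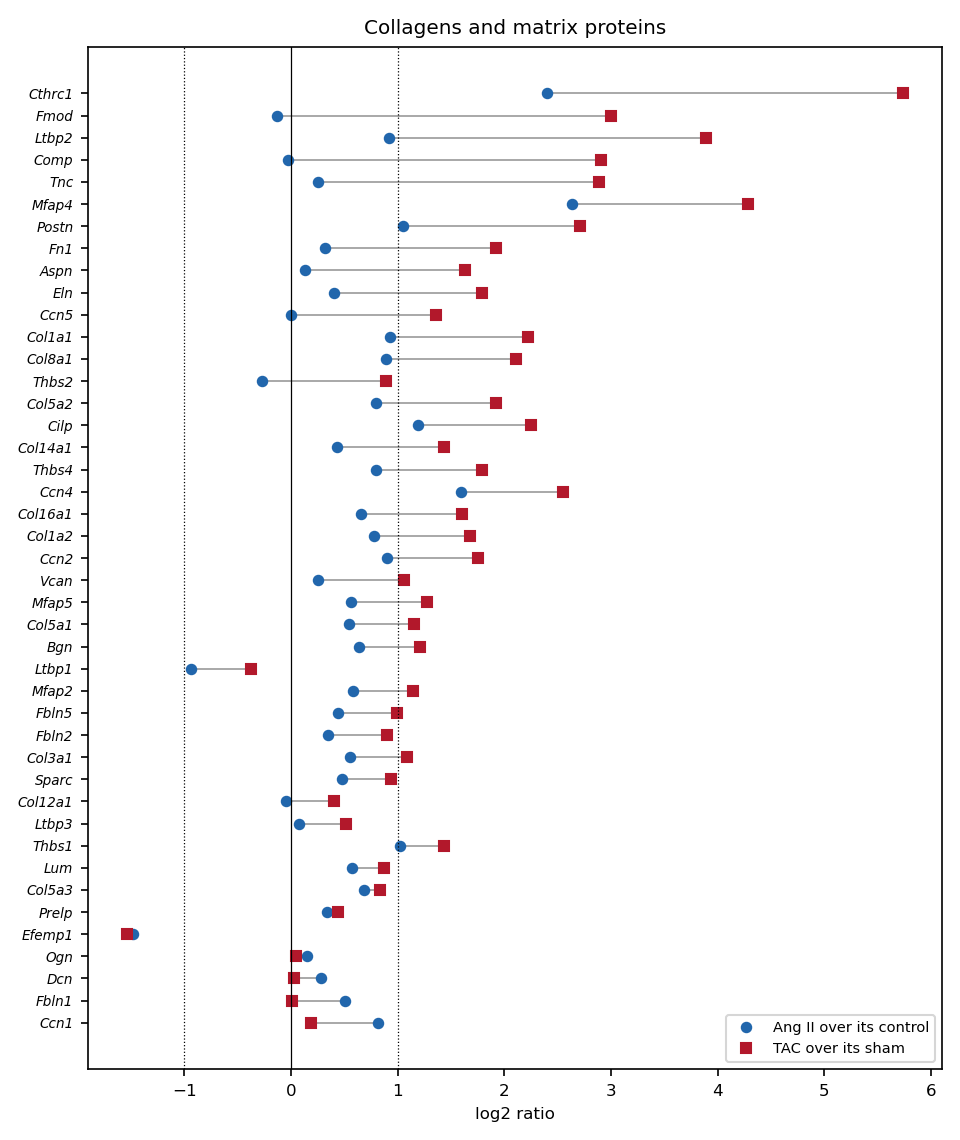
Log2 ratio with Ang II over its control (blue circles) and TAC over its sham (red squares) of the 43 measured collagens and matrix proteins, ordered by the difference, with dotted lines at the 2-fold limits. The red square lies right of the blue circle for 38 genes, from Cthrc1 at the top, and left of it for the 5 at the bottom.

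Of 21 basement membrane genes, 5 were higher with TAC (2.43% of all genes) and 0 with Ang II (1.16%), with medians of 0.55 and 0.10. The median difference was -0.50, against up to 0.21 between 2 controls and 0.31 between 4. Col15a1 was at 222 against 179 with Ang II and 461 against 205 with TAC, and Nid1, nidogen, at 717 against 653 and 1142 against 644, with 3 probe sets that disagreed. Among 17 genes of collagen maturation the medians were 0.12 and 0.35. Loxl3 was at 88.9 against 58.6 and 163 against 69.9, whereas the prolyl hydroxylase P4ha2, at 331 against 367 and 319 against 333, did not differ by more than the controls.

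Matrix proteases and inhibitors had medians of 0.17 with Ang II and 0.44 with TAC over 21 genes. Their median difference of -0.28 was smaller in size than the median of 0.34 between 2 controls, so no order of the procedures is read from the list. Timp1, an inhibitor of matrix metalloproteases, was at 57.2 against 37.1 with Ang II and 242 against 110 with TAC. Mmp14, the membrane protease that activates Mmp2, was at 130 against 70.1 and 237 against 115, with ratios of 0.90 and 1.04. Mmp12, the macrophage elastase, was at 62.2 against 4.59 with Ang II and at 44.7 against 54.4 with TAC, so its difference of 4.04 rests on a dim Ang II control, and the controls spread over 3.57 log2 units.

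Of 26 genes of TGF-beta, activin and BMP signalling, 4 were higher with TAC (2.43% of all genes) and 1 with Ang II (1.16%), with medians of 0.29 and 0.14. Tgfb3, a TGF-beta ligand, was at 158 against 145 with Ang II and at 323 against 140 with TAC. Tgfb2, a second ligand, was at 127 against 68.5 and 207 against 74.5, and so lay above all controls on both procedure arrays. Fstl1, a secreted glycoprotein that modulates BMP signalling, was at 1301 against 913 and 2468 against 977, with controls within 0.10. Of 21 fibroblast markers 4 were higher with TAC (2.43% of all genes) and 0 with Ang II (1.16%), with medians of 0.33 and 0.17. Their median difference of -0.15 was smaller in size than the median of up to 0.25 between 2 controls. No order of the procedures is therefore read from the list. Ratios were below 0 for 5 members with TAC and for 8 with Ang II. Mfap5, a microfibril protein, was at 658 against 446 with Ang II and 1757 against 727 with TAC, and Fap, a fibroblast surface protease, at 119 against 106 and 157 against 75.9. Pdgfra was at 467 against 404 and 626 against 519, and Tcf21 at 291 against 252 and 431 against 329. The transcription factor Meox1 was at 183 against 94.6 and 334 against 112. Other markers went the other way. Scara5 was lower in both pairs, at 235 against 358 and 372 against 543. Gsn was lower with TAC only, at 8902 against 8423 and 6560 against 8281. Acta2 was at 4347 against 4426 and 3022 against 4658, with 3 probe sets that disagreed.

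The fetal and hypertrophy genes split. Of 26 measured, 6 were higher with TAC (2.43% of all genes) and 1, Nmrk2, with Ang II (1.16%), with medians of 0.38 and 0.16. The difference was above 0 for 13 members and below 0 for 13. Its median of -0.077 was smaller in size than the median of up to 0.082 between 2 controls. No order of the procedures is therefore read from the list as a whole. The single Ang II gene is near the share over all genes, and 3 members were lower with Ang II than with TAC (3.73%). Myh7, the beta myosin heavy chain of the fetal and the loaded ventricle, was at 1905 with Ang II against 1022 and at 3812 with TAC against 817. Its folds were 1.86 and 4.67, and both procedure arrays exceeded the 3 controls. Nppa, atrial natriuretic peptide, was at 5104 against 3068 and 8363 against 1571. The Ang II control had a higher Nppa signal than the TAC sham and the MI sham (1354), and relative to the mean of the 3 controls the difference shrank from -1.68 to -0.71.

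Nppb, brain natriuretic peptide, had another pattern, at 6761 with Ang II against 4701 and at 6860 with TAC against 6265. Both procedure arrays were alike and the Ang II control was the lowest of the 4. Fhl1, a sarcomeric LIM protein that responds to load, was at 3351 against 2079 and 4143 against 2575, with folds of 1.61 in both pairs. Rcan1, a target of calcineurin, was at 565 against 442 and 1106 against 754. Acta1, skeletal alpha actin, was at 11385 against 10231 and 10104 against 9363, and Ankrd1 was at 11422 against 10123 and 10210 against 9555, with ratios between 0.10 and 0.17 at the top of the signal scale.

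Nppa is also a marker of atrial tissue, and the order of other atrial genes was not the same. Summed signals of the 4 atrial markers other than Nppa were 2564 with Ang II, 2132 in its control, 2165 with TAC and 1067 in its sham, so the TAC sham was the lowest and the TAC array did not stand above the Ang II array. Myl7, the atrial regulatory light chain, was at 1030 against 839 and 906 against 416, and Myl4 at 967 against 939 and 799 against 436. Both light chains were thus higher on the 2 Ang II arrays and the TAC array than in the TAC sham. Pam, a peptide-amidating enzyme abundant in atrial granules, was at 145 against 139 and 347 against 98.9. The part of atrial tissue in the Nppa difference was not tested.

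The cell cycle list stood higher on the TAC array. Of 31 measured members 14 were higher with TAC (2.43% of all genes) and 2 with Ang II (1.16%), with medians of 0.97 and 0.12, and 9 were lower with Ang II than with TAC (3.73%). All 31 had a TAC ratio above 0. The list differed by a median of up to 0.51 between 2 controls, the TAC sham being low for several members. Measured against the mean of the 3 controls the median difference was -0.58 in place of -0.74.

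Mki67, the proliferation marker Ki-67, was at 87.7 with Ang II against 59.6 and at 192 with TAC against 20.5, with the MI sham at 55.3. The TAC array was the highest and the TAC sham the lowest of the 5. Ccnb2, the mitotic cyclin B2, was at 22.6 against 40.7 and 91.6 against 17.0. Mcm6, a subunit of the replicative helicase, was at 107 against 90.9 and 165 against 19.7. Against the MI sham at 85.5 and the Ang II control, the TAC sham stands apart for Mcm6, and with all 3 probe sets averaged its difference was -0.98 in place of -2.84. Cdk1, the mitotic kinase, passed with both procedures, at 52.5 against 21.1 and 73.8 against 11.3.

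The promoters of 3 of these genes are shown because mitotic genes commonly carry the CCAAT box, bound by NF-Y, and the cell cycle homology region TTTGAA (CHR), and replication genes carry E2F sites. The sequences are from RefSeq on GRCm38.p6, 5′ to 3′ on the gene's strand up to the base before the annotated start, with CCAAT (or ATTGG, its reverse), TTTGAA and the E2F letters TTTGGCGC or TTTCGCGC on either strand in capitals; in Mcm6 a forward and a reverse E2F match overlap.
Ccnb2, chr9:70421555-70421654, minus strand: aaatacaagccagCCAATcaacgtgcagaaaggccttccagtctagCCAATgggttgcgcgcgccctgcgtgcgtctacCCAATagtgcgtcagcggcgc
Mki67, chr7:135716380-135716579, minus strand: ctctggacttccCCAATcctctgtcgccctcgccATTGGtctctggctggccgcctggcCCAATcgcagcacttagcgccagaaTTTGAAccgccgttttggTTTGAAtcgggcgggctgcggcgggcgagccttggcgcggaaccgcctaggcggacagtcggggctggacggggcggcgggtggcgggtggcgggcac
Mcm6, chr1:128359706-128359825, minus strand: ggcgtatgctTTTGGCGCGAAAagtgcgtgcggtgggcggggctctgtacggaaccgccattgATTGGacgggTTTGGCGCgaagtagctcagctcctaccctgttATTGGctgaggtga

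Ccnb2 holds 3 CCAAT boxes, starting 87, 54 and 21 bases before the start. Within 250 bases before the start, 22 of the 24 cell cycle genes found in the promoter table (91.7%) held a CCAAT box, against 40% of 9382 tested genes, and 10 (41.7%) held TTTGAA against 12.7%. An E2F match was present in 3 (12.5%) against 1.45%. All 8 members found in that table that were lower with Ang II than with TAC held a CCAAT box. These are matches of letters and not evidence of binding.

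Immediate early genes, the first transcription factors induced by a stimulus, had medians of 0.46 with TAC and 0.09 with Ang II over 25 genes, while 2 controls differed by at most 0.06. The median difference was -0.52, and that between 4 controls reached 0.37. Egr2 was at 24.3 with Ang II against 18.5 and at 80.9 with TAC against 16.5. Egr3 was at 63.8 against 34.6 and 124 against 35.7, so the Ang II array lay between its control and the TAC array, though its 2 probe sets disagreed. Egr1 was at 464 against 213 and 705 against 503, and its controls spanned 1.68 log2 units.

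Interferon-induced genes were lower with Ang II than with TAC for 5 of 34 members (3.73% of all genes), with medians of -0.08 with Ang II and 0.38 with TAC, but controls differed by up to 0.62. Ifit1 was at 39.5 with Ang II against 50.7 and at 158 with TAC against 60.1, with the MI sham at 108. Irgm1, an interferon-induced GTPase, was at 171 against 170 and 732 against 376. Iigp1 was at 527 against 577 and 3087 against 2363, with the MI sham at 3011, so both arrays of the Ang II pair were far below the TAC pair and the MI sham. Macrophage marker sums were also lower on the Ang II pair, and the dap ratio was higher there. Their part was not tested.

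Macrophage genes, with medians of 0.13 and 0.19 over 29 members, differed by up to 0.84 between controls, and no order of the procedures can be read from them. Csf1r, the receptor that maintains macrophages, was at 1081 against 988 and 1597 against 1398. Gpnmb, a glycoprotein of lipid-laden macrophages, was at 136 with Ang II against 14.7 and at 77.0 with TAC against 136. Its difference of 4.02 comes from a control of each pair: the Ang II control and the MI sham (16.3) were low and the TAC sham was high. Neutrophil genes, 7 in number and high in the TAC sham, had medians of 0.17 and -0.79, and the sign of their difference turned, to -0.64, when each procedure was set against the mean of the 3 controls.

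With signals scaled to a common trimmed mean, genes of mitochondrial energy metabolism lay slightly below the sham with TAC and near the control with Ang II. Fatty acid oxidation genes had medians of -0.42 with TAC and -0.03 with Ang II over 34 members, and the difference was above 0 for 30 of them, with a median of 0.40. Genes of oxidative phosphorylation and the TCA cycle had medians of -0.35 and -0.04 over 48 members, with 46 differences above 0 and a median of 0.31. Between any 2 controls the medians of both lists were at most 0.13 in size. With 1 exception, Ucp3, no member of either list passed the limits on the difference, which 2.37% of all genes passed as higher and 3.73% as lower.

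Cpt2, the inner carnitine palmitoyltransferase, was at 2402 with Ang II against 2267 and at 1310 with TAC against 2075. Acaa2, the mitochondrial thiolase, was at 5494 against 5987 and 2977 against 4976, and Ech1 at 8764 against 9249 and 5142 against 8509. In these 3 genes the TAC array was the lowest of the 4 and the remaining arrays lay close together. Ucp3, a mitochondrial uncoupling protein regulated by fatty acids, was at 166 against 118 and 75.2 against 120, with a difference of 1.16. Pdk4, the kinase that limits glucose oxidation, was at 3507 against 2628 and 1842 against 2459, on opposite sides of the control in the 2 pairs and within 2-fold.

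Brightness and cardiomyocyte markers, whose sum was lowest on the TAC array, went with these differences, and their part was not tested. The highest signal on the TAC array was 11700, against 14400 to 14900 on the other 3, and among the 383 genes above a mean signal of 2000 outside the mitochondrial lists the median difference was already 0.18, with a TAC median of -0.18. After quantile normalization, which forces equal distributions, the median difference of oxidative phosphorylation was 0.08, while that of fatty acid oxidation was 0.29. The TAC medians relative to all genes were then -0.09 and -0.33. For oxidative phosphorylation the 0.08 is below the 0.13 reached between 2 controls under the main scaling, so its direction depends on the scaling. With signals as deposited the median differences of these lists were 0.08 and 0.17, or 0.30 and 0.39 above the median of all genes. Sarcomere genes had a median difference of 0.20. With signals as deposited it was -0.03, or 0.19 above the median of all genes. After quantile normalization it was -0.04, or -0.05 relative to all genes, so no direction is given for them.

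Calcium handling and ion channel genes had medians of -0.28 with TAC and -0.10 with Ang II over 32 members. Their median difference of 0.22 was -0.01 with signals as deposited. Relative to the median of all genes it was 0.21 in both settings, and 0.13 after quantile normalization. Kcnh2, a repolarizing potassium channel, was at 404 with Ang II against 440 and at 252 with TAC against 435. Kcnip2, a subunit of the transient outward current, was at 1298 against 1595 and 901 against 1447, and was therefore lower than its control in both pairs. Sln, sarcolipin, an inhibitor of the calcium pump that is abundant in atria, was at 493 against 276 and 376 against 156. Of these 3 genes, Sln passed the limits, with TAC.

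**Figure D5:**
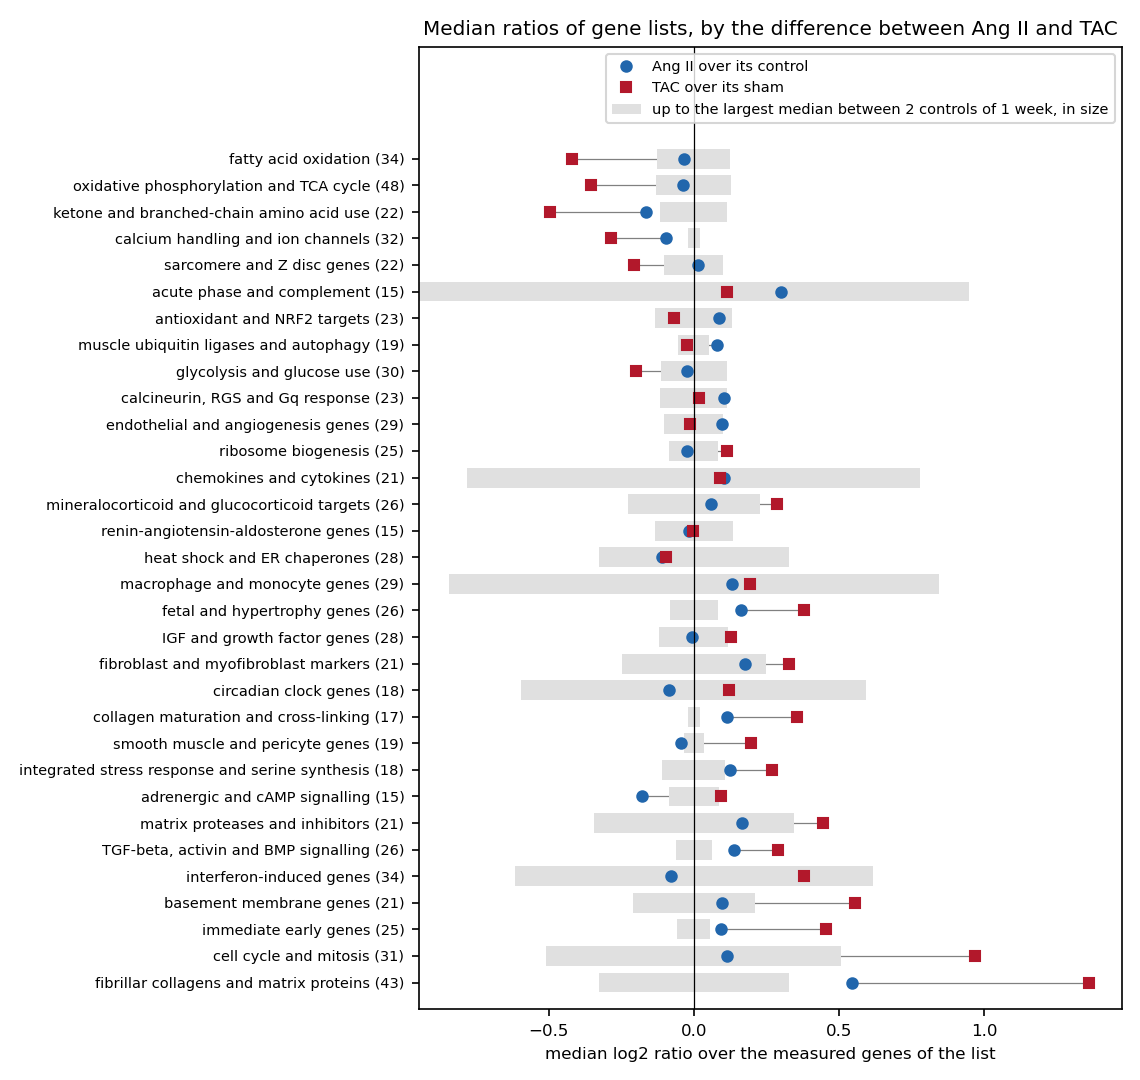
Median log2 ratio of the measured genes of each list of 15 or more genes (number in brackets) with Ang II over its control (blue circles) and TAC over its sham (red squares), ordered by the median difference, with grey bars out to the largest median between 2 controls of 1 week, drawn on both sides of 0. Collagens and matrix proteins lie at 0.55 and 1.36 beyond a bar of 0.33, whereas macrophage and chemokine genes lie inside theirs.

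Of the 46 genes above a signal of 100 that were higher with Ang II than with TAC, 13 were lower with TAC alone and 2 were higher with Ang II alone. Ano10, an anoctamin, was at 662 with Ang II against 737 and at 233 with TAC against 710, with the MI sham at 806. The 4 other arrays lay close together, and the TAC fold was 3.05. Efnb3, the ligand ephrin B3, was at 307 against 374 and 96.6 against 293, and Steap4, a metalloreductase, at 380 against 349 and 117 against 399. Fbp2, the muscle fructose bisphosphatase, was at 321 against 307 and 99.1 against 209, and Gcdh, glutaryl-CoA dehydrogenase, at 275 against 303 and 149 against 385; both were named after their values were seen.

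The 2 genes bright and higher with Ang II alone were Sting1 and Rps27. Sting1, a sensor adaptor of cytosolic DNA, also named after its values were seen, was at 126 with Ang II against 56.9 and at 81.2 with TAC against 74.9. Rps27, a ribosomal protein gene with related copies in the genome, whose reading is therefore uncertain, was at 156 against 43.6 and 35.6 against 85.0. In both the Ang II array exceeded the other 4 arrays of 1 week, with folds of 2.21 and 3.58 over its control.

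The reverse set, 48 bright genes higher with TAC alone, held matrix genes and also genes outside the lists. Itgbl1, a secreted integrin-like protein, was at 162 with Ang II against 131 and at 449 with TAC against 103. Ecrg4, a secreted peptide precursor, was at 50.02 against 26.0 and 233 against 19.6, and Srpx2 at 54.97 against 60.8 and 165 against 31.8. Dio2, the deiodinase that activates thyroid hormone, was at 33.1 against 25.9 and 113 against 27.9, with controls within 0.11. Sfrp2, a secreted Wnt modulator, was at 43.9 against 30.5 and 193 against 54.1. Each of these had its highest signal on the TAC array.

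Genes of the renin-angiotensin-aldosterone system did not separate the procedures. Of 15 measured, 0 were past the limits with Ang II and 0 with TAC, and the medians were -0.02 and 0.00. Agtr1a, the type 1 receptor of Ang II, was at 457 with Ang II against 427 and at 301 with TAC against 397. Its ratio was 0.10 with Ang II and -0.40 with TAC, and the 3 controls lay within 0.17. Ace, the converting enzyme, was at 205 against 143 and 316 against 184, highest on the TAC array. Nr3c2, the mineralocorticoid receptor, was at 119 against 171 and 75.5 against 98.5, lower than its control in both pairs by under 2-fold. Prcp, a carboxypeptidase that degrades Ang II, passed the limits on the difference at -1.09, but its 4 probe sets disagreed.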

How the data were processed

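Total RNA of the left ventricle, 5 µg a sample, was hybridised to Affymetrix arrays, and 4 of 12 arrays are compared here. The deposited values are linear signal intensities, made in GCOS per the submitters' processing notes; the sources used here name neither the signal algorithm nor the version. Each array was scaled to a common 2% trimmed mean, floored at the 20th percentile (4.54) and taken to log2. Of 45101 probe sets, 34958 had 1 symbol in the platform annotation, 932 had several and 9211 were not named; 34754 matched RefSeq. The brightest probe set stood for a gene, and 11623 genes passed a mean signal filter of 18.1 (the 40th percentile).

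Limma 3.58.1 (R 4.3.3) was fitted over all 12 arrays with 3 residual degrees of freedom from controls grouped by time, after tests on simulated data. Tables were made with Python 3.11.15, pandas 2.3.3 and numpy 2.4.6. The members and the 41 gene lists were chosen with earlier results of these data known.

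The rule for named genes took the 10 shared higher and 8 shared lower genes with the largest ratios, the 10 largest differences in each direction, up to 4 genes of each list, and the fetal and renin-angiotensin lists. Bright genes and further list members, among them Acaa2, Aspn, Ccn1, Ccn2, Cdk1, Col1a1, Col1a2, Col3a1, Col5a2, Col8a1, Cpt2, Csf1r, Dcn, Ech1, Egr1, Egr3, Fn1, Fstl3, Iigp1, Irgm1, Kcnip2, Loxl3, Meox1, Mmp14, Myl7, Nid1, P4ha2, Pdgfra, Sln, Tcf21, Tgfb2 and Timp1, were named after their values were seen. Alternatives changed the scaling, floor, filter, probe set rule, controls and model. The number of arrays limits the precision, with no replicate check within a group.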

Additional observations from a re-analysis of the deposited data

Results flagged for a closer look

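In 8 genes the Ang II array lay past the limits on one side of its control and the TAC array past them on the other. With 1 array a group, the difference was not tested within groups, and all 8 had signals under 100 on the 4 arrays. The log2 difference, Ang II ratio minus TAC ratio, was positive for Slc34a2 (4.41, with the TAC array at the floor), Dnmt3b (3.81), Gtpbp6 (2.77) and Pigt (2.08). It was negative for Ifi44l (-3.66), Ntrk2 (-3.18), Tnfaip8l2 (-2.81) and Sytl2 (-2.47). Ifi44l, an interferon-induced gene, was at 8.07 with Ang II against 30.6 and at 68.7 with TAC against 20.6. Dnmt3b, a DNA methyltransferase, was at 49.3 against 16.3 and 7.06 against 32.9. The probe sets of Ntrk2 and Pigt disagreed in sign.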

How the results depend on the processing

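Without the filter on dim genes, genes called with Ang II at 1 week numbered 424 (244 as reported), genes called with TAC at 1 week 641 (407), and genes higher with Ang II than with TAC 470 (276) while limma called 162 genes (0). Above a signal of 100 on the arrays compared, an alternative chosen after seeing the data, the counts were 12 with Ang II, 142 with TAC, 4 with both (46), 46 for differences higher and 98 lower (433). With signals as deposited, TAC had 633 calls, differences were higher for 150 and lower for 755, and limma called 1 gene, as it did with all 6 controls as 1 group. Against the mean of the 3 controls of 1 week 145 differences were higher. With probe sets averaged, the difference of C2cd2l turned to -0.94 and that of Prcp to 0.34. List medians turned to -0.64 for neutrophil genes and to -0.0048 for antioxidant genes against the mean of the 3 controls, to -0.0068 (calcium handling), -0.029 (sarcomere) and -0.070 (antioxidant) with signals as deposited, and to -0.039 (sarcomere) after quantile normalization. With signals as deposited the median difference of all genes was itself -0.22. Relative to it the medians were 0.21 (calcium handling), 0.19 (sarcomere) and 0.15 (antioxidant). The causes were not tested. Each of the 41 lists was counted once under each alternative. Of the remaining medians so counted, 203 stayed within the spread between controls and 37 moved without a change of sign.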
